A study of Mus musculus with 10 samples.

Results

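The histone cluster genes encode the histone proteins that are made in bulk while DNA is copied, and most of them lie in clusters in the genome. Here they are the 71 rows of the deposited tables, of 47643 genes in all, whose symbol begins with Hist1h, Hist2h, Hist3h or Hist4h. The rows carry 70 symbols, because Hist2h2bb names 2 rows. Their RNA was measured in 10 mouse melanomas, 5 labelled as lacking the tyrosine kinase gene Fes (Fes KO) and 5 labelled as having it (Fes WT). The Fes genotypes in the series record are Fes-/- and Fes+/+, each with Tyr::CreERT2/+ and BRafV600E/+. Both groups thus carry a tamoxifen-activated Cre recombinase under the promoter of the pigment enzyme gene tyrosinase, which acts in melanocytes, with the V600E form of BRaf, and both received topical 5 mM 4OH-Tamoxifen on the back skin. Age, strain and sex are absent from the labels. Separate animals are not stated for the tumours either, and the p-values here therefore cover tumour-to-tumour spread only, which may be partly technical.

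Core histones H2A, H2B, H3 and H4 form the protein spool of the nucleosome, and the linker histone H1 binds the DNA where it enters and leaves. Most mRNAs of these genes are made in S phase, have no introns, and end in a conserved stem-loop bound by the protein SLBP in place of a poly(A) tail. Some of the genes also give longer, polyadenylated transcripts that read past the stem-loop, chiefly in cells that have left the cycle. Replacement histones, such as H3f3b, are encoded elsewhere and give polyadenylated mRNAs throughout the cycle.

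Of the 71 rows, 56 belong to Hist1 and 11 to Hist2 by symbol, with 3 in Hist3 and 1 in Hist4, on chromosomes 13, 3, 11 and 6 in that order (GRCm38, GENCODE M21). By histone type there are 6 H1, 20 H2A, 20 H2B, 12 H3 and 13 H4 rows. The annotation lists 67 as protein-coding, 2 as processed pseudogenes, 1 as an unprocessed pseudogene and 1 as a long noncoding RNA. Identifiers matched the annotation for 69 rows, and Hist1h2bh and Hist1h2bm were matched by symbol.

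The stem-loop is shown because it sets these transcripts apart from other mRNAs. Its 16 bases are in capitals, with 5 bases on either side, read from the M21 transcripts in GRCm38. Hist1h1c, Hist3h2a and Hist1h4i had the most reads of the H1, H2A and H4 genes, and Hist1h4c is a sparse H4 gene, with 6 reads over the 10 tumours, set beside them.
Hist1h1c: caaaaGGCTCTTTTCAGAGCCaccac
Hist3h2a: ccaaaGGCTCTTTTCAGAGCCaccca
Hist1h4i: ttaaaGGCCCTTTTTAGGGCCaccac
Hist1h4c: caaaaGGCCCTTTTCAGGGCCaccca

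The stem-loop was found in the transcripts of 46 of the 71 rows, against 62 of 58797 protein-coding M21 transcripts in all (0.105%). The H2B genes with the most reads, Hist1h2bc and Hist2h2be, were among the rows without a match. No match says only that these letters are not in the annotated model, which for many members stops at the end of the coding sequence.

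Total read counts ranged from 13226783 to 16599120 per tumour, and the 71 rows took 1838 to 2423 of them, or 0.0117% to 0.016%. Fes was at 29.2 to 57.5 CPM (counts scaled to a common depth by the library sizes used in the test) in Fes KO and at 72.4 to 102 CPM in Fes WT, so the groups did not overlap (exact 2-sided permutation p = 0.00794, the smallest this design allows). Its log2 fold change of -1.06 (SE 0.19, adjusted p = 0.0846) did not pass edgeR's quasi-likelihood test with Benjamini-Hochberg adjustment over 14816 genes. All 12 melanocyte and neural crest markers examined were detected, with a summed level of 2060 to 4400 CPM in Fes KO and 2030 to 4220 CPM in Fes WT. Fes KO 2 stood apart with keratinocyte markers at 4580 CPM, against 6.27 to 192 CPM in the other 9 tumours, and Fes WT 3 with skeletal muscle markers at 13900 CPM, against 2.99 to 1660 CPM. Xist, the RNA that coats the inactive X chromosome, measured 670 to 720 CPM in Fes KO 1, Fes KO 2 and Fes WT 5, while the highest of the other tumours had 0.678 CPM. In these bulk samples fewer cells of a type and less RNA per cell cannot be told apart.

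Most of the members were at or near 0. Of the 71 rows, 20 had 0 counts in every tumour, which allows up to 0.0196 CPM (3 counts over the 10 libraries, counting error only), and 43 had between 1 and 100 reads over all 10 tumours together. Only 7 reached a mean of 1 CPM. The linker histone gene Hist1h1c and the H2B gene Hist1h2bc took 75.6% of all reads counted to the members, and with Hist2h2be (H2B) and Hist3h2a (H2A) the share was 91.7%. Reads by type were 10015 for H1, 9413 for H2B, 1737 for H2A, 650 for H4 and 312 for H3. A nucleosome holds equal numbers of the 4 core histones, but these reads are not scaled for length and leave out the replacement histones. They therefore do not measure histone proportions.

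Per kb of exon, which allows genes to be compared, Hist1h1c had a mean of 41.8 and Hist1h2bc of 38.7 CPM per kb over the 10 tumours. Hist2h2be followed at 5.00, Hist3h2a at 4.80 and the H4 gene Hist1h4i at 3.75 CPM per kb. The pseudogene Hist1h2al was at 2.11 CPM per kb, from means of 4.18 in Fes KO and 0.0375 in Fes WT. The H3 gene Hist2h3c2 was at 1.54 and the H4 gene Hist1h4h at 1.02 CPM per kb. The H2B genes Hist1h2bg, Hist3h2ba and Hist1h2be followed at 0.815, 0.728 and 0.521 CPM per kb. None of the 9 H3 genes of Hist1 was among these leading members.

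**Figure D1:**
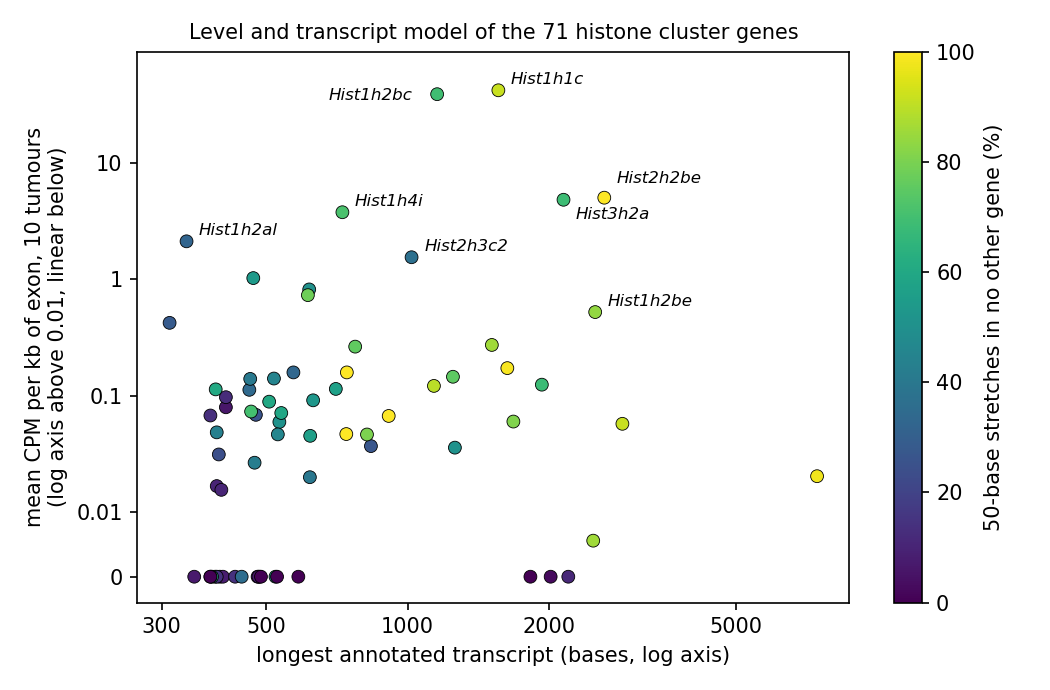
Mean level (y axis, CPM per kb of exon over 10 tumours, log axis above 0.01) against the longest annotated transcript (x axis, bases, log axis) for each of the 71 histone cluster genes, with colour for the percentage of 50-base stretches found in no other annotated gene. The 7 genes that averaged 1 CPM or more all have models of at least 700 bases, and the dark points at the bottom are genes with 0 reads and few stretches of their own.

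The transcript models differed between the detected and the sparse members. All 7 members with a mean of at least 1 CPM were among the 27 with an annotated transcript of at least 700 bases, and none of the 44 with shorter models reached that level. CPM is not per length and so favours long genes. Per kb of exon the first 5 genes were the same as by CPM, while Hist1h2be came after 5 shorter members. The poly(A) signals AATAAA or ATTAAA, searched on the transcript strand in the last 50 bases, were found in 17 of the 71 members. Any transcript of a member could count. Of all protein-coding transcripts, taken singly, 50.2% held a signal. Many member models stop at the end of the coding sequence, so these shares are not like for like. Of the 17 members with a signal, 5 reached 1 CPM (Hist1h1c, Hist2h2be, Hist3h2a, Hist1h4i and Hist1h2be), and of the other 54, 2 did (Hist1h2bc and Hist2h3c2). The 17 held 65.7% of the members' reads. In Hist1h1c the annotated model runs 840 bases past the stem-loop, in Hist3h2a 1643, in Hist1h2be 1861 and in Hist1h4i 330. The labels do not say whether the libraries were made from polyadenylated RNA, and its part in these levels was not tested. Of 16 RNAs without a poly(A) tail that were looked up, 5 had 0 reads everywhere, and the most abundant, Rn7sk, which encodes the 7SK RNA, averaged 3.32 ± 3.25 CPM in the Fes KO tumours against 2.75 ± 2.39 CPM (SD, n = 5 each). Rpph1, the RNA of ribonuclease P, followed at 0.945 ± 1.18 and 0.837 ± 0.952 CPM.

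Sequence shared between members was also unevenly spread. For each member the 50-base stretches of its transcripts that occur in no annotated transcript of another gene, on either strand and overlapping genes included, were counted. The 20 rows with 0 reads had a median of 7.4% such stretches, and 17 of them had less than 50%. Of these, 5 had none, namely Hist2h2aa1 and Hist2h2aa2 (H2A), Hist2h3b and Hist2h3c1 (H3) and the coding row of Hist2h2bb. The 51 detected rows had a median of 56.8%, and 19 of those were under 50%. The labels state neither the read length nor the treatment of reads that match several places, so counts of near-identical members are uncertain, and a count of 0 there does not show that the gene was silent. Hist1h2aa and Hist1h2ba, at 76.2% and 61.8%, also had 0 reads.

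Neighbours that share a promoter region differed as well. Hist1h2ac (H2A) and Hist1h2bc (H2B) are transcribed away from each other from starts 250 bases apart, and the stretch between them, chr13:23683949-23684198 (GRCm38.p6, plus strand, from RefSeq promoter sequence), is shown because 1 partner was near 0. Capitals mark CCAAT and TATAAA on either strand.
Between Hist1h2ac and Hist1h2bc: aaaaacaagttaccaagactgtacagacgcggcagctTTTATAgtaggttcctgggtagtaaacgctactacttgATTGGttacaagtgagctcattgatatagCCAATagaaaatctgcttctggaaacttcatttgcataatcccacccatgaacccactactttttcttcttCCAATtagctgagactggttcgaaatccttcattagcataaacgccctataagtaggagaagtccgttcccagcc

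CCAAT occurred 3 times there, and TATAAA 1 time, on the minus strand. Of all 32851 RefSeq promoter windows of 300 bases, 37.4% hold CCAAT and 13.6% hold TATAAA on either strand. Hist1h2bc had 6795 reads over the 10 tumours and Hist1h2ac had 2. In the Hist2 cluster, the H2B gene Hist2h2be had 1995 reads and its H2A neighbour Hist2h2ac, 238 bases away, had 11.

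Between Fes KO and Fes WT, the well-detected members were at overlapping levels, while Hist1h2al and the Hist2h2bb row that carries reads were seen in the Fes KO tumours and almost not in Fes WT. Of the 71 rows 8 passed the filter on low counts and were tested, and 1 was called at an adjusted p below 0.05, higher in Fes KO, beside 0.0472% of all tested genes called higher and 0.175% called in either direction. None of the 8 was called lower. Hist1h2al passed the filter only through its Fes KO tumours. The 8 had a median log2 fold change of 0.06, with 5 above 0 and 3 below, where all 14816 tested genes had a median of 0.01.

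**Figure D2:**
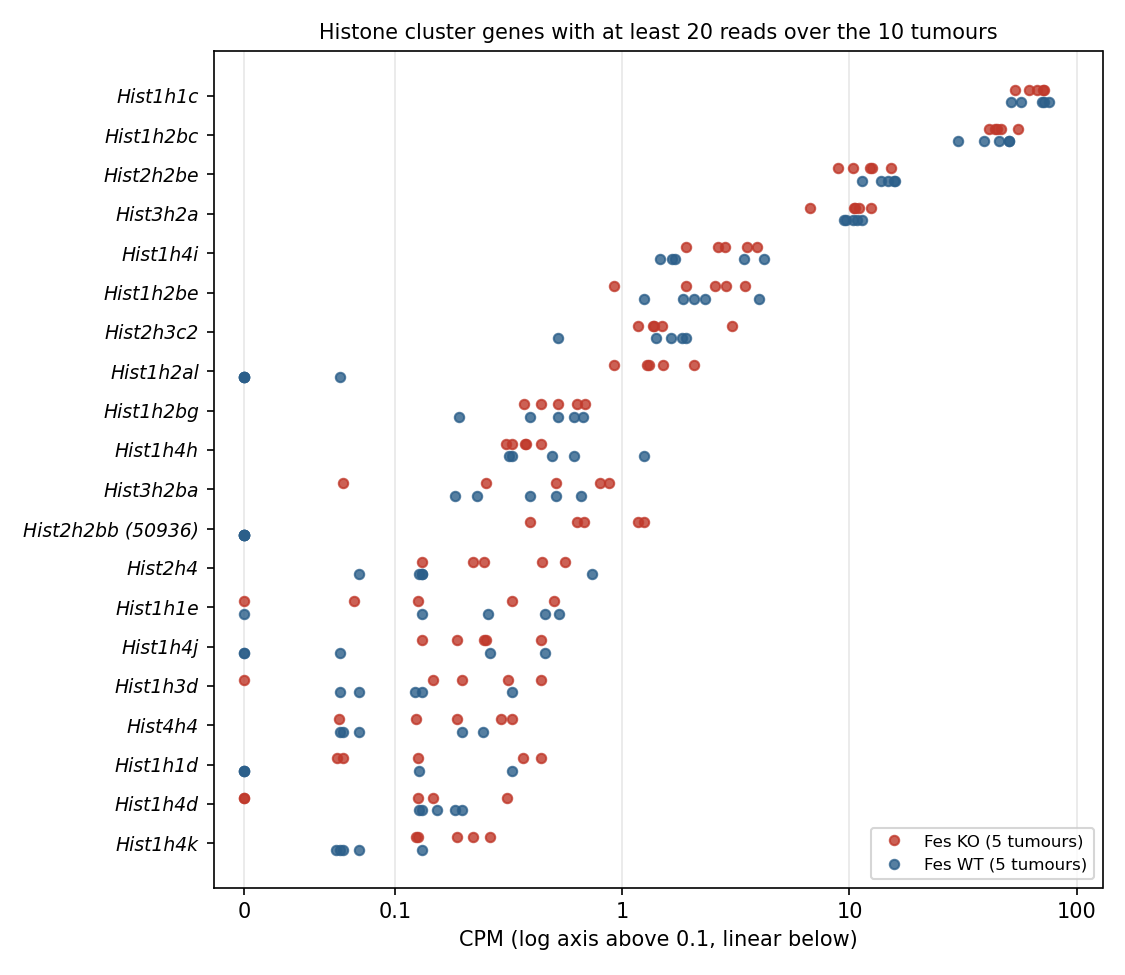
CPM in each tumour (x axis, log above 0.1 and linear below) of the 20 histone cluster rows with at least 20 reads over the 10 tumours, ordered by mean, with red points for Fes KO and blue for Fes WT. The groups overlap in every row but Hist1h2al and the Hist2h2bb row marked with the end of its identifier, whose Fes WT points sit at or next to 0.

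Linker histone was measured through Hist1h1c (ENSMUSG00000036181, chromosome 13, 23738808 to 23740367), which encodes histone H1.2. It was at 53.6, 66.7, 61.9, 71.4 and 72.0 CPM in Fes KO 1 to 5 and at 57.0, 70.5, 72.1, 51.6 and 75.9 CPM in Fes WT 1 to 5. The ranges lay over each other, with the lowest and the highest tumour both in Fes WT. The log2 fold change was -0.01 (SE 0.13, adjusted p = 0.994, edgeR). Of the other H1 genes, Hist1h1e had 36, Hist1h1d 23 and Hist1h1b 18 reads in all tumours together (the last 2 are named after their values were seen). Hist1h1e overlaps Hist1h2be on the same strand, so reads there are uncertain.

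Among H2B genes, Hist1h2bc (ENSMUSG00000018102, chromosome 13, 23684199 to 23692908) was at 46.5, 44.5, 41.1, 43.9 and 55.0 CPM in Fes KO 1 to 5. In Fes WT 1 to 5 it was at 30.1, 45.6, 50.2, 39.3 and 50.6 CPM. Fes WT 1 was the lowest, and the other tumours of both groups were mixed. The log2 fold change was 0.10 (SE 0.15, adjusted p = 0.865).

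Hist2h2be (ENSMUSG00000068854, chromosome 3, 96221119 to 96223738) had the lowest log2 fold change of the tested members. It was at 10.4, 8.92, 12.3, 12.6 and 15.3 CPM in Fes KO 1 to 5 and at 15.9, 14.8, 11.3, 15.7 and 13.8 CPM in Fes WT 1 to 5. Fes KO 1 and Fes KO 2 lay below every Fes WT tumour, and Fes KO 5 lay among the upper Fes WT values. Its log2 fold change of -0.27 (SE 0.16, adjusted p = 0.625) did not pass. Hist1h2be averaged 2.34 ± 0.976 CPM in Fes KO against 2.29 ± 1.04 CPM in Fes WT (SD, n = 5 each), with a log2 fold change of 0.03 (SE 0.39).

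H2A was read mainly through Hist3h2a (ENSMUSG00000078851, chromosome 11, 58954685 to 58956830), at 10.5, 11.0, 12.4, 6.73 and 10.6 CPM in Fes KO 1 to 5 and 10.4, 11.4, 9.65, 10.8 and 9.45 CPM in Fes WT 1 to 5. Fes KO 4 was the lowest tumour and the others were close together. The log2 fold change was -0.01 (SE 0.17, adjusted p = 0.990). Trim17, which overlaps it on the same strand, had 51 reads in Fes KO and 50 in Fes WT, beside 1581 reads of Hist3h2a.

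For H4, Hist1h4i (ENSMUSG00000060639, chromosome 13, 22040636 to 22041362) was at 3.91, 3.55, 2.65, 1.90 and 2.84 CPM in Fes KO 1 to 5 and 1.70, 1.46, 4.20, 1.65 and 3.43 CPM in Fes WT 1 to 5. Fes WT 3 was the highest and 3 Fes WT tumours were the lowest, so the groups were mixed (log2 fold change 0.26, SE 0.35, adjusted p = 0.844). Hist1h4h was too low for the test, at 0.308 to 0.437 CPM in Fes KO and 0.318 to 1.25 CPM in Fes WT, where Fes WT 3 was the highest. Hist1h4k had 2, 3, 2, 4 and 3 reads in Fes KO 1 to 5 and 1, 1, 2, 1 and 1 in Fes WT 1 to 5. It is named after its values were seen. Its exact 2-sided permutation p of 0.0238 was the lowest after Hist1h2al and Hist2h2bb among 51 members so compared, and in edgeR without the filter on low counts it had an adjusted p of 0.598.

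H3 was the least covered type. Hist2h3c2 (ENSMUSG00000081058, chromosome 3, 96238108 to 96239127) was at 3.03, 1.5, 1.17, 1.37 and 1.38 CPM in Fes KO 1 to 5 and at 0.522, 1.91, 1.64, 1.4 and 1.83 CPM in Fes WT 1 to 5. Fes KO 1 was the highest and Fes WT 1 the lowest of all tumours. The log2 fold change was 0.21 (SE 0.38, adjusted p = 0.891). Of its 50-base stretches 36.5% occur in no other gene. Hist1h3d, the next, had 28 reads in all.

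**Figure D3:**
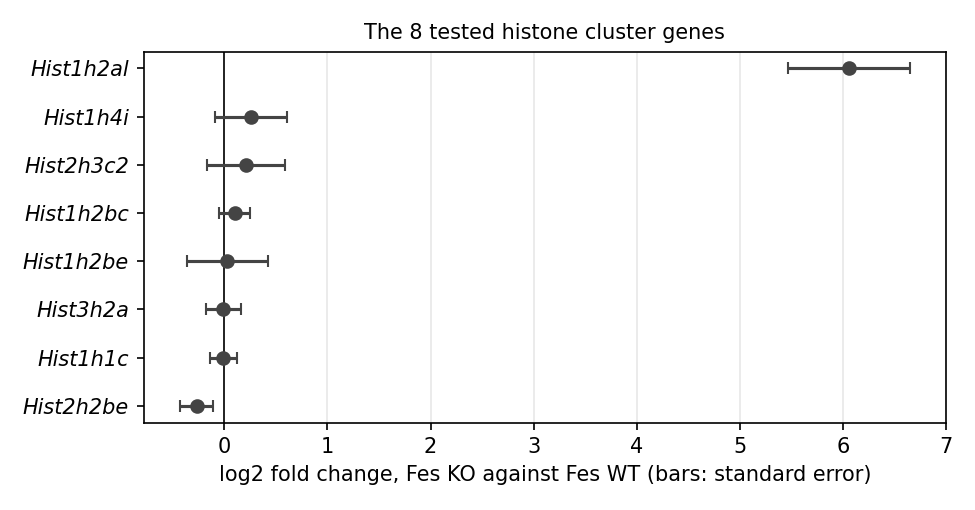
Log2 fold change of Fes KO against Fes WT (x axis) for the 8 tested histone cluster genes, with bars for the standard error. The 7 genes other than Hist1h2al lie between -0.27 and 0.26, and Hist1h2al lies at 6.06.

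The 7 tested members other than Hist1h2al had log2 fold changes between -0.27 and 0.26 and adjusted p values of 0.625 to 0.994 (edgeR), with a lowest unadjusted p of 0.136. Summed over all 71 rows, the level was 147 ± 12.1 CPM in Fes KO, from 137 to 167, and 143 ± 18.8 CPM in Fes WT, from 120 to 161 (SD, n = 5 each). The H1 sum was 65.8 ± 7.86 against 66.0 ± 10.9 CPM, the H2B sum 62.7 ± 7.28 against 61.0 ± 7.94, the H2A sum 11.9 ± 2.44 against 10.7 ± 0.822, the H4 sum 4.57 ± 1.00 against 3.96 ± 1.62 and the H3 sum 2.25 ± 0.911 against 1.81 ± 0.473 CPM, Fes KO first. The ranges of both groups overlapped for each type. The H2B sum includes the Hist2h2bb row ENSMUSG00000050936, annotated as a long noncoding RNA, which averaged 0.823 CPM in Fes KO and 0 in Fes WT. Without Hist1h2al, a comparison made after its values were seen, the H2A sum was 10.5 ± 2.16 CPM in Fes KO against 10.7 ± 0.802 in Fes WT, so the sign of the H2A difference rests on that pseudogene.

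Hist1h2al (ENSMUSG00000091383) is annotated as a processed pseudogene, a copy of an mRNA inserted back into the genome, on chromosome 13 from 51202727 to 51203065, minus strand, as a single exon. It lies 27.3 Mb beyond the last of the other Hist1 members, which span 21715763 to 23934851, so it stands outside the Hist1 cluster that its symbol names. Its 339 bases match the H2A genes Hist2h2aa1 and Hist2h2aa2 of chromosome 3 at 99.4%, with 2 substitutions, and Hist2h2ac at 98.2%, with 6. The remaining H2A members matched at 83.2% (Hist1h2aa) to 92.6%. Counted from 1 at the 5′ end of Hist1h2al, the substitutions are C120T and T216G against both Hist2h2aa genes, and G3A, A6G, T114C, T216G, C234T and G297A against Hist2h2ac, with the Hist1h2al base before the number. The stretch from position 100 to 236 is shown because it holds both bases that part Hist1h2al from Hist2h2aa1, and capitals mark each position where any of the 3 differ.
Hist1h2al: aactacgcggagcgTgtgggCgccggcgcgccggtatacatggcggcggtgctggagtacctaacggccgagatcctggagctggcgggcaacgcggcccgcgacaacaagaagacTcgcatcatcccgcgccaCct
Hist2h2aa1: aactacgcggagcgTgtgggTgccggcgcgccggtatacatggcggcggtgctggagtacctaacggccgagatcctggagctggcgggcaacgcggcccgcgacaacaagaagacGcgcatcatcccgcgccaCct
Hist2h2ac: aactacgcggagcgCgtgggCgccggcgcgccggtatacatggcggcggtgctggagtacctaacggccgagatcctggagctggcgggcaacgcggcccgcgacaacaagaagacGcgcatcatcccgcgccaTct

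Reads counted to Hist1h2al numbered 24, 33, 21, 14 and 18 in Fes KO 1 to 5 and 0, 1, 0, 0 and 0 in Fes WT 1 to 5. Every Fes KO tumour was far above every Fes WT tumour. In CPM the group means were 1.42 ± 0.418 and 0.0127 ± 0.0285 (SD, n = 5 each). The 110 reads against 1 gave a ratio of 108, with an exact 95% counting interval of 19.0 to 4310. That interval pools the reads of each group and leaves out the spread between tumours. The log2 fold change was 6.06 (SE 0.59, adjusted p = 0.00212, edgeR), and its size rests on the single Fes WT read. The call was lost with the replicate number as a block (adjusted p = 0.0801).

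The near-identical genes did not give a second reading. Hist2h2aa1 and Hist2h2aa2 had 0 reads in every tumour. The antisense genes that overlap them had reads in all tumours, 187 in Fes KO and 147 in Fes WT for Gm20632, and 164 and 91 for Gm20633, and without strand information reads from a gene and its antisense partner cannot be told apart. Hist2h2ac had 0 to 3 reads per tumour. Of the 50-base stretches of Hist1h2al 32.4% occur in no other annotated gene. Whether its reads come from this locus or from a Hist2h2aa copy that carries the same bases was not tested.

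**Figure D4:**
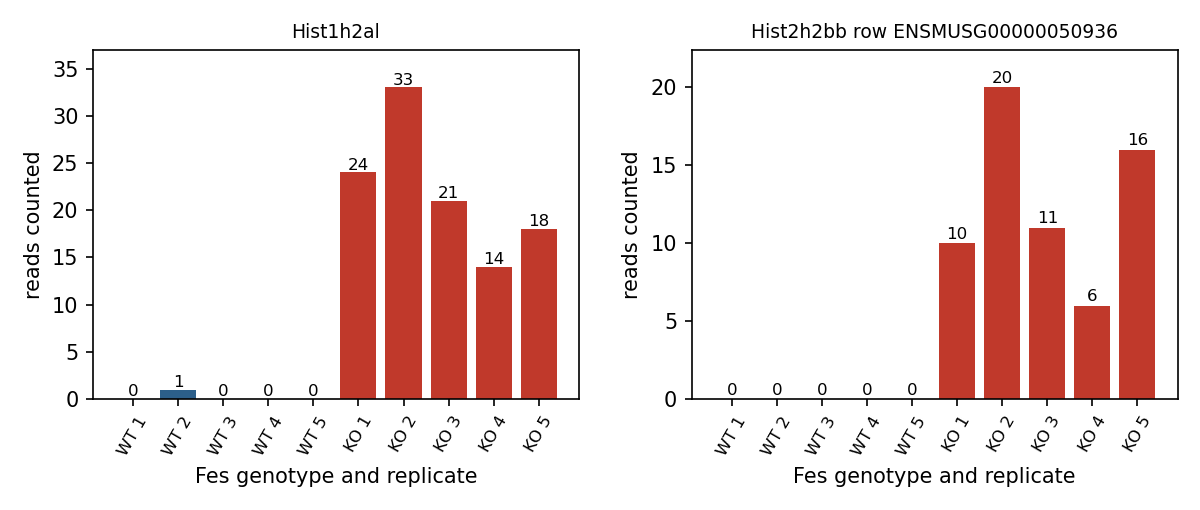
Reads counted per tumour (bars, from 0) for Hist1h2al and for the Hist2h2bb row ENSMUSG00000050936, with blue for Fes WT and red for Fes KO. Fes KO tumours have 14 to 33 and 6 to 20 reads, and the Fes WT tumours have a single read between them in the left plot and none in the right.

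Hist2h2bb names an H2B gene of the Hist2 cluster and occurs in 2 rows. The row ENSMUSG00000105827 is the H2B coding exon on chromosome 3, 96269752 to 96270132, and had 0 reads in every tumour. The row ENSMUSG00000050936 is named Gm42743 in M21, a long noncoding RNA of 2 exons, from 96269721 to 96269977 and from 96277748 to 96279001. Its first exon shares 226 bases with the start of the H2B coding sequence and is then spliced to a distant exon, so in the annotation this row is a spliced transcript that starts across the H2B gene and not the histone mRNA. The join is printed because it is where the rows part. Lower case marks the 30 bases before the join, and capitals the 30 that follow in each transcript.
ENSMUSG00000050936: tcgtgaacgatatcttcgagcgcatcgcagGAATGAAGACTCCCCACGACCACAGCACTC
ENSMUSG00000105827: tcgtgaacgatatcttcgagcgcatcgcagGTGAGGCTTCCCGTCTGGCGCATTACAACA

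The row ENSMUSG00000050936 had 10, 20, 11, 6 and 16 reads in Fes KO 1 to 5 and 0 in each Fes WT tumour. All Fes KO tumours were thus above all Fes WT tumours. Its mean of 0.823 ± 0.368 CPM in Fes KO (SD, n = 5) was at least 20.8-fold higher than the 0.0396 CPM that 3 counts over the Fes WT group would give. Over the 28496 genes with at least 1 read, 3 (0.0105%) had 0 reads in every Fes WT tumour and at least 1 in every Fes KO tumour, and 0.0316% showed the reverse. This row did not reach the filter on low counts, and with no Fes WT read it can pass only through the Fes KO tumours, where it is high. Without that filter its adjusted p was 0.0759 in edgeR, which then called 0.0632% of genes, and DESeq2, which called 1.7%, gave 1.6e-05. It passed the filter in that way in 3 of the fits with 1 tumour left out, and these give no further support. Its adjusted p in edgeR was below 0.05 without Fes KO replicate 4 (adjusted p = 0.0490) and without Fes WT replicate 5 (0.0481), and above it without Fes WT replicate 3 (0.0923). Gm20628, which overlaps both rows on the opposite strand, had 12 reads in Fes KO and 3 in Fes WT.

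These 2 rows were the members whose groups did not overlap, both higher in Fes KO, and no member lay wholly lower. Among genes with at least 1 read this held for 0.481% in the higher and 0.765% in the lower direction, and among tested genes, which include Hist1h2al, for 0.783% and 1.11%. Exact 2-sided permutation gave p = 0.00794 for each, the smallest this design allows. The lack of overlap alone fixes that value, so it gives no support beyond it. Hist1h2al was called in edgeR without the 3 Xist-expressing tumours (log2 fold change 5.61, adjusted p = 0.0297) and without the keratinocyte-rich and the muscle-rich tumour (5.67, adjusted p = 0.0158). In these fits too it passes the filter only through Fes KO tumours, so they give no further support.

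The remaining detected members were sparse, and their sums overlapped between the genotypes. The 41 protein-coding rows with 1 to 100 reads summed to 3.53, 7.55, 3.33, 3.20 and 4.66 CPM in Fes KO 1 to 5 and to 3.13, 2.74, 5.97, 4.15 and 3.66 CPM in Fes WT 1 to 5. Fes KO 2 and Fes WT 3 were the highest, with 34 and 25 of the 41 detected, against 20 to 24 in the other tumours. These 2 tumours are also the ones rich in keratinocyte and in muscle transcripts, and they had the highest levels of the proliferation marker Mki67, 176 and 145 CPM against 29.9 to 102 CPM elsewhere. Their means of the G2 and mitosis list, 5.46 and 5.25 as log2 (CPM + 0.1), were above the 3.05 to 4.55 of the others. In the S phase list Fes KO 2 was also the highest, at 5.00, but Fes WT 3, at 4.48, lay below Fes KO 1 (4.54) and Fes KO 3 (4.76), whose sparse sums were among the lower ones. Fes KO 5 had the third sum, at 4.66 CPM, with the second lowest S phase mean of 3.53. The part of cell content in these sums was not tested.

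**Figure D5:**
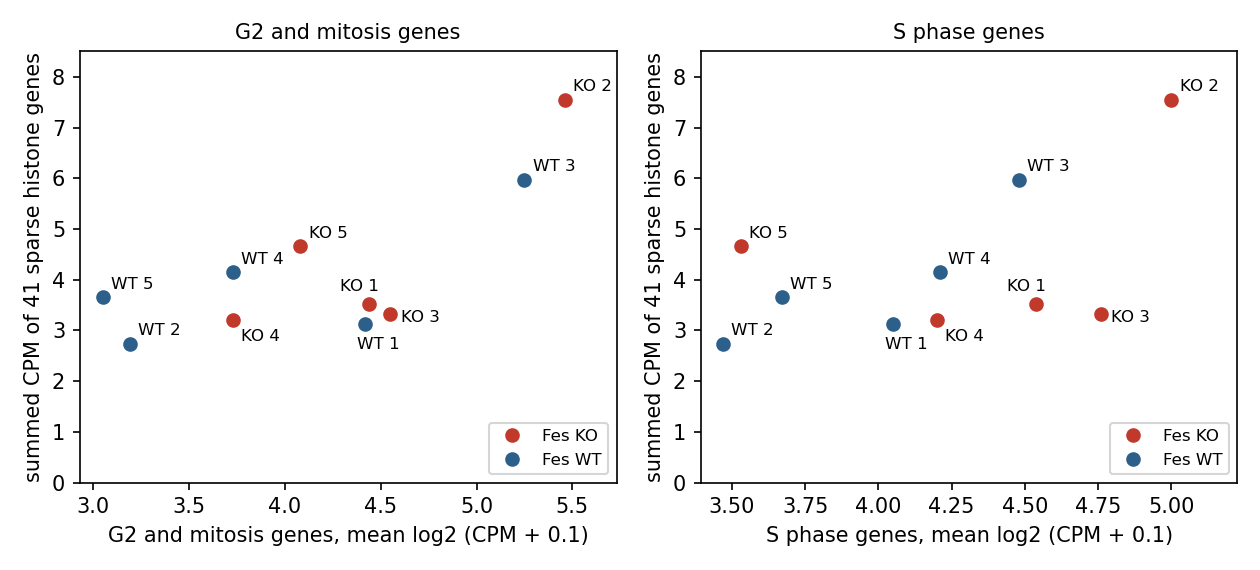
Summed CPM of the 41 sparse protein-coding histone genes (y axis) against the mean log2 (CPM + 0.1) of the G2 and mitosis list (left) and the S phase list (right), one point per tumour, red for Fes KO and blue for Fes WT. Fes KO 2 and Fes WT 3 have the highest sums and the highest G2 and mitosis means, and the other 8 tumours lie between 2.74 and 4.66 CPM.

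Genes around the histone supply were read from fixed lists in the same fit. In the S phase list, of enzymes and factors that copy DNA, 0 of 29 tested genes were called in edgeR and 1 had an unadjusted p below 0.05, where 9.62% of all tested genes did. All 29 had log2 fold changes above 0, with a median of 0.42, which was 0.13 without the 3 Xist-expressing tumours and 0.26 without Fes KO 2 alone. Immune markers had log2 fold changes of the other sign: all 8 macrophage markers were below 0 (median -0.78, none called, 4 with an unadjusted p below 0.05), with sums of 797 to 1860 CPM in Fes KO against 1260 to 3010 in Fes WT. All 7 tested T cell markers of 8 were below 0 as well (median -1.12, none called), with sums of 2.77 to 22.6 and 7.64 to 31.1 CPM. The part of these cells in the list values was not tested. The most abundant genes of the S phase list were the maintenance methyltransferase gene Dnmt1, with a log2 fold change of 0.35 (SE 0.17), and the ribonucleotide reductase gene Rrm1, with a log2 fold change of 0.29 (SE 0.26). In the G2 and mitosis list, none of 22 was called and none had an unadjusted p below 0.05. Its median was 0.42 with 22 of 22 above 0, and without the 3 Xist-expressing tumours it was -0.17. It was 0.05 without Fes KO 2 alone, 0.91 without Fes WT 3, and 0.26 without Fes WT 2 or Fes WT 5. Its most abundant genes, Mki67 and the topoisomerase gene Top2a, had log2 fold changes of 0.48 (SE 0.49) and 0.44 (SE 0.50).

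Histone mRNA processing genes, which include the stem-loop binding factor gene Slbp and Npat, a coactivator of histone transcription, had 0 of 21 called and a median of 0.07, which was 0.04 without Fes KO 2, 0.12 without Fes WT 3 and 0.11 without Fes WT 4. Their most abundant members were Srrt, with a log2 fold change of 0.05 (SE 0.07), and Sympk, a scaffold of the cleavage machinery, with a log2 fold change of 0.10 (SE 0.07). Cdk2, the kinase that drives S phase entry, averaged 52.4 ± 3.49 CPM in Fes KO against 42.9 ± 3.68 CPM in Fes WT, with no overlap. It is named after its values were seen (log2 fold change 0.29, SE 0.08, adjusted p = 0.313, edgeR). It was the 1 gene of these 21 to lie wholly higher in Fes KO, beside 0.783% of all tested genes.

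Histone chaperone genes, whose proteins carry and deposit histones, had 0 of 22 called, 3 with an unadjusted p below 0.05 and a median of 0.18. Nap1l1 averaged 297 ± 59.1 CPM in Fes KO against 233 ± 19.8 CPM in Fes WT, and Atrx 185 ± 23.3 and 185 ± 33.5 CPM. Replacement histone genes had 0 of 11 called and a median of 0.19, with 10 above 0. The median was 0.12 without Fes KO 2 and 0.05 without the 3 Xist-expressing tumours. H3f3b, which encodes histone H3.3, averaged 627 ± 92.5 CPM in Fes KO against 522 ± 40.4 CPM in Fes WT, and H1f0, a linker histone of resting cells, 260.0 ± 40.6 and 196 ± 52.2 CPM (SD, n = 5 each). Neither passed (adjusted p = 0.531 and 0.546, edgeR). H3f3b alone was thus above the summed level of all 71 histone cluster rows.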

How the data were processed

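The authors deposited raw read counts per gene, and log2 values of the same 47643 genes, for 10 tumours. The submitters' processing notes name STAR 2.51b, Subread 1.4.6 and FastQC with GRCm38 and mm10 as builds, in no stated order. Settings, strand and read length were not found in the labels. Tested on the values, the deposited log2 numbers equal log2 of 1 plus the count divided by a size factor. Main results come from the counts, 13226783 to 16599120 per tumour, in edgeR 4.0.16 (R 4.3.3): TMM factors, the filterByExpr filter, the quasi-likelihood test and Benjamini-Hochberg adjustment over 14816 genes. The SE is the size of the log2 fold change over the square root of F. Single members were also compared by exact permutation over tumours. Alternatives used DESeq2 1.42.0, limma 3.58.1, other scalings and filters, a replicate block and left-out tumours. On simulated counts of these 14816 genes for Fes KO against Fes WT, 61% of 2-fold changes and 92% of 4-fold changes were recovered. Of 160 calls there, 7 were false. The changes were placed only in genes with higher means than Hist1h4i, Hist1h2be, Hist2h3c2 and Hist1h2al. These shares therefore do not hold for those members or for the sparser ones. Members and lists were chosen with earlier results of these data known. The text names Hist1h2al and its closest relatives, members called or without overlap, per histone type the 2 most abundant and the most changed, and the 2 most abundant genes of each list; names chosen after their values were seen are given as such. No tumour was left out of the main test. A part of the genotype that both groups share is not reported here.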

Additional observations from a re-analysis of the deposited data

Results flagged for a closer look

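Of 22 groups of 5 tumours examined (the 8 tested members, the Hist2h2bb row ENSMUSG00000050936 and 2 sums, of all members and of the 41 sparse ones, in each genotype), 21 had any spread, and 2 held a tumour past Dixon's limit of 0.71. Chance gives about 1 in 20 for continuous values, a rate that does not hold for groups of mostly 0 reads. Hist2h3c2 was at 3.03 CPM in Fes KO 1 against a range of 1.17 to 1.5 CPM for the rest of that group. Hist1h2al was at 0.0636 CPM in Fes WT 2, which is 1 read against 0 in the other Fes WT tumours, and a single read among zeros passes the limit by construction.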

How the results depend on the processing

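Among the members, 1 was called in the edgeR test and 0 with at least 1 CPM required in 5 tumours, a filter that leaves Hist1h2al untested. With the replicate number as a block 0 members were called, Hist1h2al had 6.12 (adjusted p = 0.0801) and 4 genes were called in all. Numbers alone link these tumours: 2 of 5 same-numbered pairs had deviations correlated over 0.1, and 1 of 10 tumours correlated best with its own number. DESeq2 called 2 members (Hist1h2al and Hist2h2bb) and 295 genes, limma-voom 115 genes, the fit without the 3 Xist-expressing tumours 64, and a threshold of 0.1 gave 49, against 26. Leaving out 1 tumour gave 1 to 2 members and 10 to 54 genes: 10 without Fes KO 1 or Fes KO 3, 12 without Fes KO 5, 15, 11 and 16 without Fes WT 1, 2 and 4, and 54 without Fes WT 5. The second member, Hist2h2bb, came without Fes KO 4 or Fes WT 5. Fes was called by DESeq2 (-1.06, adjusted p = 1.3e-04), by limma-voom (-1.16, adjusted p = 0.0186) and without Fes KO replicate 4 (-1.25, adjusted p = 0.0164), and its log2 fold change was -1.25 to -0.97 with 1 tumour left out. Hist1h2al was higher in Fes KO in all 21 alternatives that tested it (4.26 to 7.44, adjusted p from 2.6e-07 to 0.0801). These refits reuse the same reads, and it passes the filter on low counts only through its Fes KO tumours. They therefore give no further support. Without that filter its adjusted p in edgeR was 0.0103. The median of the tested members was between -0.01 (without Fes WT 1) and 0.21 (without Fes WT 3). The causes of these shifts were not tested. Adding the S phase mean as a covariate took the S phase median from 0.42 to -0.04, which its construction brings about, and the medians for G2 and mitosis, replacement histone and chaperone genes to -0.02, 0.10 and 0.08. Depth limits the sparse members: 25 of the 51 detected had under 10 reads over all tumours.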
